A study of Homo sapiens with 24 samples.

Results

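The response of wild-type HEK293A cells to the stiffness of their matrix was measured by comparing 3 RNA libraries from cells on a stiff gel (40 kPa) with 3 from cells on a soft gel (1 kPa). These 6 libraries are part of 24, which cross 4 genotypes with the same stiffnesses, 3 libraries to a group. HEK293A is an adherent human embryonic kidney line, here labelled WT, with no edited gene. Per the labels, cells in all groups were grown with 10% serum and antibiotics on fibronectin-coated hydrogels and had no other treatment. The libraries set beside WT came from knockout lines labelled YAP/TAZ-dKO, RAP2A/B/C-tKO and, for the Hippo kinases, LATS1/2-dKO. The sources used here do not give the number of clones behind each genotype, the time on the gel or the cell density. The design text calls the replicates biological. The comparison asks which genes follow the stiffness of the substrate in unedited cells. It was made on the 14284 genes, of 58174 in the deposited tables, with an FPKM of at least 1 in 3 or more of the 6 WT libraries. FPKM is the number of fragments assigned to a gene per kilobase of transcript, scaled to the size of the library.

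Cells sense a stiff substrate through integrins and the tension of the actin cytoskeleton. On stiff matrix the coactivators YAP and TAZ (gene WWTR1) are known to enter the nucleus, where TEAD factors bring them to genes such as CTGF and CYR61. On soft matrix the Hippo kinases LATS1 and LATS2 phosphorylate YAP and TAZ and keep them in the cytoplasm, and the small GTPases RAP2A, RAP2B and RAP2C are known as activators of that branch.

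The WT libraries held between 26.76 and 42.74 M fragments, as estimated from the deposited confidence intervals. An FPKM of 1 was reached by 14315 to 14418 genes per library on the soft gel and by 14077 to 14133 on the stiff gel. The SD of the log2 difference between replicate pairs lay between 0.399 and 0.445. Of 14 genes set as a reference for HEK293 cells, 9 passed the filter, among them VIM (213 to 230 FPKM over the 6 libraries) and CDH2 (25.2 to 28.2). The others of that list, the kidney epithelial genes PAX2, PAX8, EPCAM and CDH1 and the neurofilament NEFM, were each below 0.5 FPKM. The summed level of 9 endothelial markers was 0.179 to 0.406 FPKM on the soft and 0.192 to 0.314 on the stiff gel, with TIE1, CLDN5 and EMCN listed at 0. That of 12 immune markers was 6.90 to 8.61 and 5.53 to 6.18, CD68 making up most of it and CD3E and NKG7 being listed at 0. That of 11 neuronal markers was 16.6 to 20.3 and 17.5 to 19.5, with STMN2 listed at 0. The 12 fibroblast markers summed to 72.3 to 75.2 and 76.2 to 78.9 FPKM, nearly all of it PDPN and S100A4, with COL1A2 and DCN listed at 0. In bulk RNA, fewer cells of a kind and less RNA per cell cannot be told apart.

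On the stiff gel 50 genes rose (0.35% of those tested) and 108 fell (0.756%), 158 or 1.11% in all. A gene was called where limma's two-sided moderated test, over all 24 libraries with 16 residual degrees of freedom, gave a Benjamini-Hochberg adjusted p below 0.05. An unadjusted p below 0.05 was found for 1805 genes. Most changes were small. The median size of the change was 0.30 among the genes that rose and 0.393 among those that fell, in log2(FPKM + 1), the scale of every log2 change below. It reached 1 for 4 genes that rose, CTGF, ANKRD1, AMOTL2 and AJUBA, and 2 that fell, a small nucleolar RNA and a clone-named transcript. The genes that rose were the more abundant, with a median level of 33.2 FPKM against 9.08 for those that fell and 14.2 for all genes tested. Their median GC content was 52.9% against 47.9% and 48.0%. The plot of level against change shows these rises and falls against the genes not called.

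**Figure D1:**
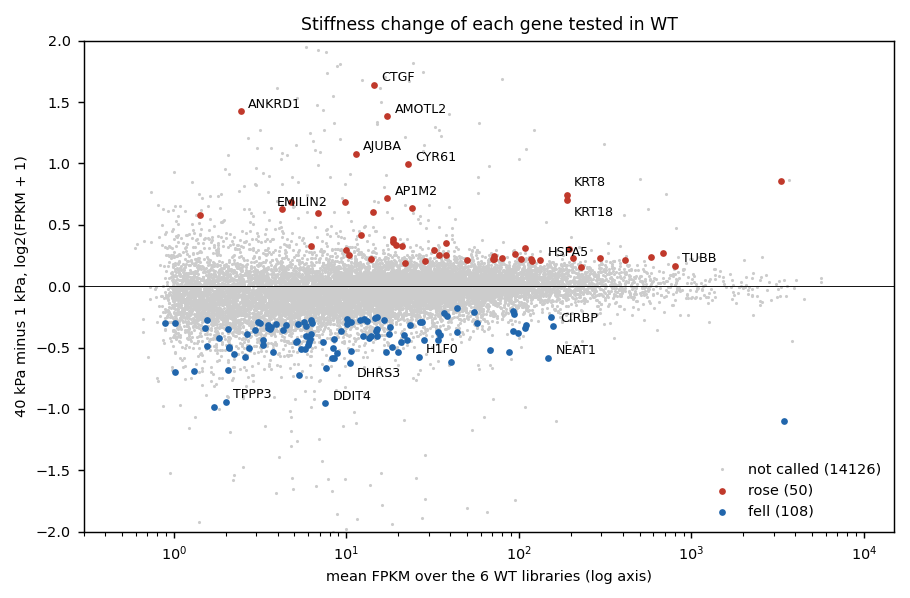
Change of each gene between 40 and 1 kPa in WT, in log2(FPKM + 1), against its mean FPKM over the 6 WT libraries on a log axis. Red points are the 50 genes that rose, blue points the 108 that fell, grey points the genes not called. Outside the plotted range lie 56 genes, 1 of them called.

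These counts depended on 2 libraries that are not of WT. RAP2A/B/C-tKO_40kPa replicate 3 and LATS1/2-dKO_40kPa replicate 1 enter the shared spread. Their deviations from their group means had Spearman correlations of -0.618 and -0.597 with GC content over 14094 genes. Replicates 1 and 2 of RAP2A/B/C-tKO_40kPa were at 0.567 and 0.507, and replicates 2 and 3 of LATS1/2-dKO_40kPa at 0.494 and 0.41. Deviations from a mean of 3 libraries offset each other, so these values alone do not single out 2 libraries. Among the compared libraries this correlation was largest in size for WT_1kPa replicate 3, at -0.361, and lay between -0.154 and 0.245 in the other 5. RAP2A/B/C-tKO_40kPa replicate 3 and LATS1/2-dKO_40kPa replicate 1 are called the GC-deviating libraries below. Without them 1026 genes were called in WT, 376 higher and 650 lower, and all 158 were among them. The balance of directions followed the scaling. Higher genes were 31.6% of the calls on the values as deposited, and 61.7% (119 higher, 74 lower) after scaling all libraries to the same median ratio, which moved the median change of all genes from -0.034 to 0.002. With GC correction they were 58.5% of 504 calls (295 higher, 209 lower). Leaving out 1 WT library gave between 46 calls (without WT_1kPa replicate 3) and 100 (without WT_1kPa replicate 1), all counts being lower than 158. Of the 66 called genes named by rule, 23 held in each of the 6 fits that left out a WT library, and 0 changed direction in any fit. Those 6 fits kept every knockout library. A fit of the WT libraries alone called 66 genes, of which 31 were among the 158.

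Among the genes called, those known as direct targets of YAP, TAZ and TEAD held the largest rises. Of 26 members of a target list, 20 passed the filter, of which 5 rose and 0 fell. Their median change was 0.263, against -0.034 for all genes tested, and in 10 of the 20 every stiff library lay above every soft library, as in 9.63% of all genes. The same 5 were called whichever WT library was left out. AXL, IGFBP3, NT5E, NUAK2, RBMS3 and TGFB2 were below the filter, all with a highest value of 1.32 FPKM or less.

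CTGF (ENSG00000118523.5, hg19 chromosome 6, 132269316 to 132272513) encodes a secreted matricellular protein that promotes matrix production. It stood at 6.97, 6.29 and 6.38 FPKM in soft replicates 1 to 3 and at 22.5, 23.4 and 21.7 in stiff replicates 1 to 3. Every stiff library lay far above every soft one, a ratio of means of 3.44 (log2 change 1.64, SE 0.0546, adjusted p = 7.67e-13). CYR61, of the same CCN family and also secreted, was at 13.8, 15.6 and 15.1 FPKM on the soft and 29.1, 33.0 and 29.4 on the stiff gel. Again the groups did not overlap, and the ratio was 2.06 (log2 change 0.99, SE 0.0878, adjusted p = 2.67e-06).

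ANKRD1, an ankyrin repeat protein of the nucleus and the muscle sarcomere, was barely detected on the soft gel. Its values were 1.13, 0.651 and 0.853 FPKM there and 4.06, 3.94 and 4.05 on the stiff gel. The stiff values were close to each other and far above the soft ones, and the ratio of means was 4.58 (log2 change 1.43, SE 0.0961, adjusted p = 8.95e-08). The log2(FPKM + 1) scale understates the change of a gene this low: with a pseudocount of 0.1 it was 2.10.

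The next pair act on the Hippo pathway themselves. AMOTL2, an angiomotin that binds YAP and activates LATS kinases, went from 9.65, 10.6 and 7.28 FPKM to 25.0, 27.5 and 23.6. The groups were far apart, though soft replicate 3 was the lowest of its group, and the ratio was 2.76 (log2 change 1.38, SE 0.191, adjusted p = 0.00084). AJUBA, a LIM protein that binds and restrains LATS kinases at junctions under tension, went from 7.21, 6.28 and 7.20 FPKM to 13.8, 16.6 and 16.7. Stiff replicate 1 was the lowest of its group and still above every soft library, and the ratio was 2.28 (log2 change 1.08, SE 0.125, adjusted p = 0.000127).

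The bases before the start of these genes are shown because TEAD factors bind the letters GGAATG. That word, searched on both strands, is found in 11.9% of the 27305 RefSeq windows of 250 bases before a gene start (build GRCh38.p14). Of the 9 called genes of the target list and of the ATF4 list below, 7 had a window in that table. The window of CTGF (chr6:131951373-131951622, minus strand) holds 3 matches, 169, 104 and 95 bases before the start, and that of ANKRD1 (chr10:90921088-90921337, minus strand) holds 2, at 220 and 128. They are printed 5′ to 3′ on the strand of the gene, with the matches in capitals.

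CTGF: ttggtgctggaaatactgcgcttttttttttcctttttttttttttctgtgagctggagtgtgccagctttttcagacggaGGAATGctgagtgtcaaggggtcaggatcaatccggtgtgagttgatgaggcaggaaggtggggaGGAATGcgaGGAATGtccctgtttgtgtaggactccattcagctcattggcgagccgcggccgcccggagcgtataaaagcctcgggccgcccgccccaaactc

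ANKRD1: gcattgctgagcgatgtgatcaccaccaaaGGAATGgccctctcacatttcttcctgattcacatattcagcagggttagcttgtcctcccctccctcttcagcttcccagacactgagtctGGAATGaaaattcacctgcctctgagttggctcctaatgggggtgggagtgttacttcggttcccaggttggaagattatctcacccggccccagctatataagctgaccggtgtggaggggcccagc

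The windows of AMOTL2 and AJUBA hold 0 matches. ANKRD1 also has 1 match to the AP-1 word TGANTCA (6.6% of windows), at 195 bases, and CTGF 1 to the NF-Y word CCAAT (33.0% of windows), at 59. The CArG box of SRF (1.14% of windows) was found in none of the 4. A match is a description of these letters only.

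The other 15 members tested were not called. WTIP, an AJUBA relative, came nearest, at 3.57, 3.71 and 3.19 FPKM on the soft and 5.25, 4.75 and 5.14 on the stiff gel (log2 change 0.43, adjusted p = 0.0527). MYOF, a membrane repair protein, was at 1.27, 1.12 and 1.53 against 1.71, 2.73 and 1.62 FPKM (0.37, adjusted p = 0.133). In both, all stiff libraries lay above all soft ones, as they did for CRIM1 (0.45), GADD45B (0.38) and NUAK1 (0.28). WTIP and MYOF were called without the 2 GC-deviating libraries. PTPN14, ARHGEF17, FJX1 and AMOTL1 had overlapping groups with changes between 0.07 and 0.16, and ASAP1, CCDC80, FOXF2 and DLC1 with changes between -0.16 and -0.01. F3, tissue factor, was at 2.70, 1.65 and 2.15 FPKM on the soft and 1.98, 1.10 and 1.02 on the stiff gel, which overlap (-0.43, adjusted p = 0.232).

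None of the genes edited in the other lines was called in WT. YAP1 was at 30.0, 32.1 and 30.6 FPKM against 30.9, 32.0 and 31.9 (log2 change 0.03, SE 0.075), and WWTR1 at 23.8, 29.3 and 28.7 against 26.4, 26.9 and 25.5 (-0.04, SE 0.106). For both the groups overlapped. The changes of RAP2A, RAP2B, RAP2C, LATS1 and LATS2 lay between -0.08 and 0.25. LATS2, itself a YAP target, had the largest of these, at 2.32, 2.4 and 1.74 FPKM against 2.69, 2.09 and 3.56. Of 39 Hippo pathway genes tested, 2 rose (AJUBA and AMOTL2) and 0 fell, and of 24 RAP GTPases and their regulators 0 were called, with 0 at an unadjusted p below 0.05. Without the GC-deviating libraries TEAD1, TEAD4, WTIP and WWC2 were also called among the Hippo genes, all higher. In that fit 376 of all 14284 genes rose and 650 fell.

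**Figure D2:**
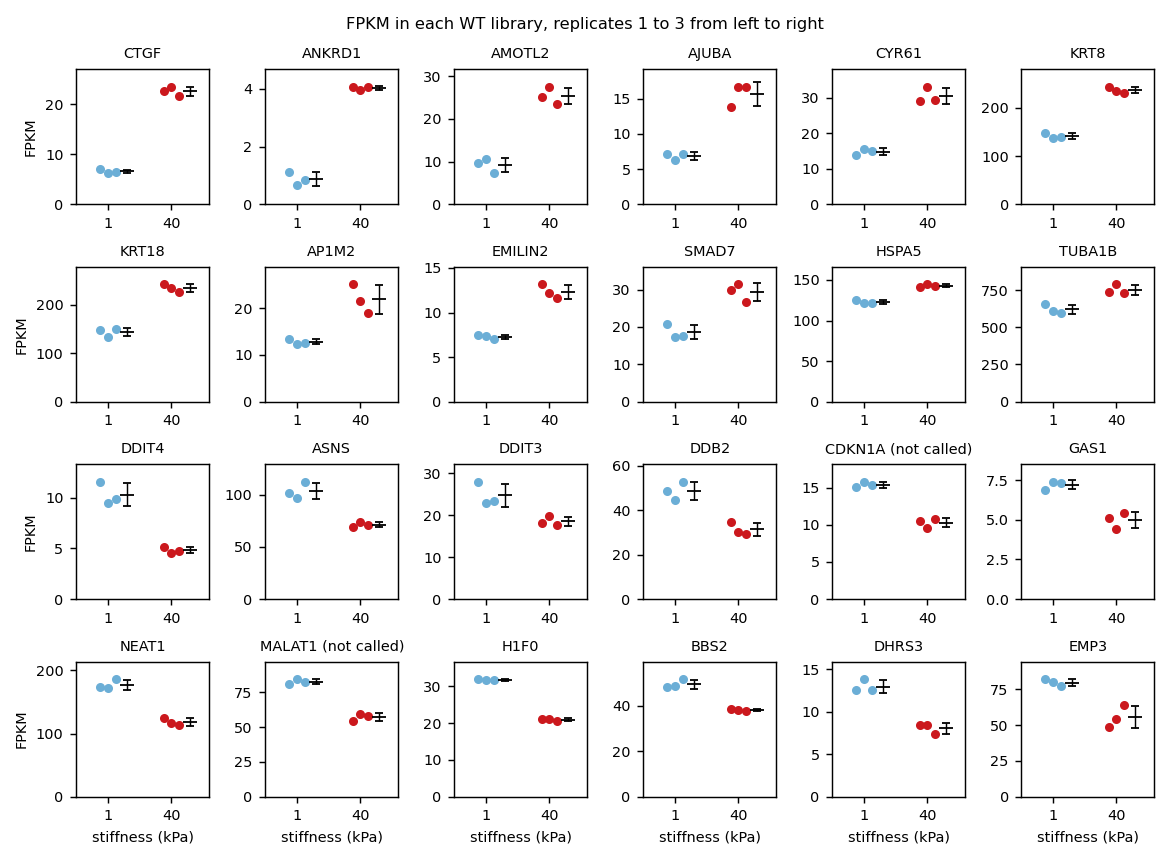
FPKM of 24 genes in each WT library at 1 and 40 kPa, with the mean and SD of 3 libraries as bars. For every gene shown the libraries at 1 and 40 kPa do not overlap, including CDKN1A and MALAT1, which were not called.

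Keratins 8 and 18, the partner intermediate filaments of simple epithelia, rose together. KRT8 was at 147.8, 136.3 and 139.2 FPKM on the soft and 243.1, 234.9 and 231.5 on the stiff gel (log2 change 0.74, SE 0.0647, adjusted p = 2.67e-06). KRT18 was at 147.2, 134.7 and 149.7 against 242.5, 235.0 and 226.0 FPKM (0.70, SE 0.0621, adjusted p = 2.67e-06). All stiff libraries lay well above all soft ones, and both calls held whichever WT library was left out. Both have many processed copies in the genome, and their deposited regions on hg19 chromosome 12 overlap (53290971 to 53343738 and 53342655 to 53346685), so the split of fragments between them and their copies is uncertain. Of 11 keratins and desmosomal genes tested these 2 rose and 0 fell, with a median of 0.017. KRT19 was at 15.8, 15.4 and 15.0 against 20.8, 17.6 and 19.5 FPKM, without a call (0.31, adjusted p = 0.444).

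Other genes that rose have varied roles. EMILIN2, a matrix glycoprotein, was at 7.46, 7.33 and 7.05 FPKM on the soft and 13.2, 12.2 and 11.7 on the stiff gel (log2 change 0.69, adjusted p = 0.00885). AP1M2, the epithelial subunit of a clathrin adaptor, was at 13.4, 12.4 and 12.6 against 25.1, 21.4 and 19 (0.72, adjusted p = 0.0107). In these the groups were well apart, with the stiff libraries of AP1M2 the more spread. GPRC5A, an orphan receptor of epithelia, went from 3.57, 2.98 and 3.73 to 7.04, 6.26 and 5.11 FPKM (0.68, adjusted p = 0.00113). VIPR1, a receptor for vasoactive intestinal peptide, went from 5.08, 6.17 and 4.6 to 7.74, 9.4 and 8.26 (0.60, adjusted p = 0.0153). SMAD7, the feedback inhibitor of TGF-beta receptors, went from 20.7, 17.4 and 17.6 to 29.9, 31.4 and 26.8 (0.64, adjusted p = 0.000851). None of these groups overlapped. The calls of GPRC5A and SMAD7 held in all 6 fits with a WT library left out, but were lost in a fit of the WT libraries alone. EMILIN2 (adjusted p up to 0.0544 without 1 library), AP1M2 (up to 0.0685) and VIPR1 (up to 0.107) each lost the call in at least 2 of those 6 fits.

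The wider lists of these functions held few calls. Of 36 matrix protein genes tested only EMILIN2 rose and 0 fell, with a median of -0.006. Of 36 integrin and focal adhesion genes SDC2, a syndecan, rose (65.5, 63.1 and 67.3 to 79.9, 78.0 and 75.2 FPKM, log2 change 0.25, adjusted p = 0.0124) and 0 fell, with a median of -0.012. SDC2 lost its call in 3 of the 6 fits with a WT library left out (adjusted p up to 0.0739). Of 25 TGF-beta targets only SMAD7 was called (median 0.031). ACTB, cytoplasmic actin, was at 2383, 2404 and 2288 against 2824, 2812 and 2719 FPKM, which do not overlap, but was not called (0.24, adjusted p = 0.518). Of 24 targets of SRF and MRTF, the factors that read actin assembly, CNN2 rose and 0 fell, with a median of 0.031. CNN2, a calponin that binds actin, was at 11.9, 10.7 and 10.7 against 16.5, 15.9 and 19.9 FPKM (0.60, adjusted p = 0.0392), and lost the call whenever a WT library was left out (adjusted p up to 0.189). ACTA2 and TPM2 of the same list stood lower on the stiff gel, at -0.36 and -0.41, and were not called. Without the GC-deviating libraries 5 of the 24 rose (ACTB, CNN2, CNN3, FLNA and ZYX) and TPM2 fell. In that fit 376 of all 14284 genes rose and 650 fell.

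Some genes that fold proteins in the endoplasmic reticulum rose. Of 25 such genes 3 rose, 0 fell, and in 11 every stiff library lay above every soft one, as in 9.63% of all genes. Their median change was 0.093. On the soft gel the 25 genes summed to 4115 to 4338 FPKM. Over all genes tested the change had a Spearman correlation of 0.247 with mean FPKM, whose part in the count of 11 was not tested. HSPA5 (BiP), the main chaperone of that compartment, was at 125.2, 121.2 and 121.5 FPKM on the soft and 141.1, 144.6 and 142.2 on the stiff gel, a ratio of 1.16 (log2 change 0.22, adjusted p = 0.0142). The disulfide isomerases PDIA4 (ratio 1.24, adjusted p = 0.0234) and P4HB (ratio 1.18, adjusted p = 0.0144) were the other two. Outside the list PPIB, a proline isomerase of the same compartment named for its abundance, rose from 405.8, 377.6 and 367.9 to 438.0, 465.1 and 432.3 FPKM (0.21, adjusted p = 0.0116). In each of these 4 the groups did not overlap. Leaving out a WT library left between 0 and 3 of the list called. PPIB lost its call in 3 of these 6 fits (adjusted p up to 0.0889). DNAJB9, an ER stress gene, had a change of -0.27 with overlapping groups and was not called.

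Among tubulins and the chaperonin that folds them there were also rises. Of 23 genes tested 2 rose and 0 fell, with a median of 0.127, and in 15 of the 23 every stiff library lay above every soft one, as in 9.63% of all genes. These are abundant genes, and over all genes tested the change had a Spearman correlation of 0.247 with mean FPKM, whose part in this count was not tested. TUBA1B was at 656.9, 606.2 and 598.1 FPKM on the soft and 735.7, 788.0 and 726.7 on the stiff gel (log2 change 0.27, adjusted p = 0.015). TUBB was at 753.8, 753.6 and 749.2 against 818.7, 866.5 and 844.8 (0.16, adjusted p = 0.0285). TUBA1C was at 310.7, 286.8 and 264.2 against 350.5, 389.9 and 359.4 and missed the threshold (0.35, adjusted p = 0.0521). Tubulin genes are near-identical copies, so the split of fragments among them is uncertain. Leaving out 1 WT library left 0 to 2 called. Without the GC-deviating libraries 9 rose and STMN1 and TUBA1A fell, where 376 of all 14284 genes rose and 650 fell.

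Genes of growth and division held few calls. Of 39 mitosis genes CDCA8, a subunit of the chromosomal passenger complex, rose from 46.3, 46.1 and 45.7 to 53.8, 52.5 and 53.9 FPKM (log2 change 0.21, adjusted p = 0.0117), and 0 fell (median 0.036). The call of CDCA8 was lost in 4 of the 6 fits with a WT library left out (adjusted p up to 0.0676). Of 38 genes of G1/S and replication 0 were called, 2 having an unadjusted p below 0.05 (median -0.003), and of 49 ribosomal proteins 0, again 2 at that level (median -0.029). Of 20 aminoacyl-tRNA synthetases VARS, which charges the tRNA of valine, rose from 172.5, 170.0 and 178.6 to 216.4, 210.1 and 218.4 FPKM (0.31, adjusted p = 0.0103). Its call was lost without WT_1kPa replicate 2 (adjusted p = 0.0531) and after GC correction, at a fold that hardly moved (0.29 to 0.36 over all fits).

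**Figure D3:**
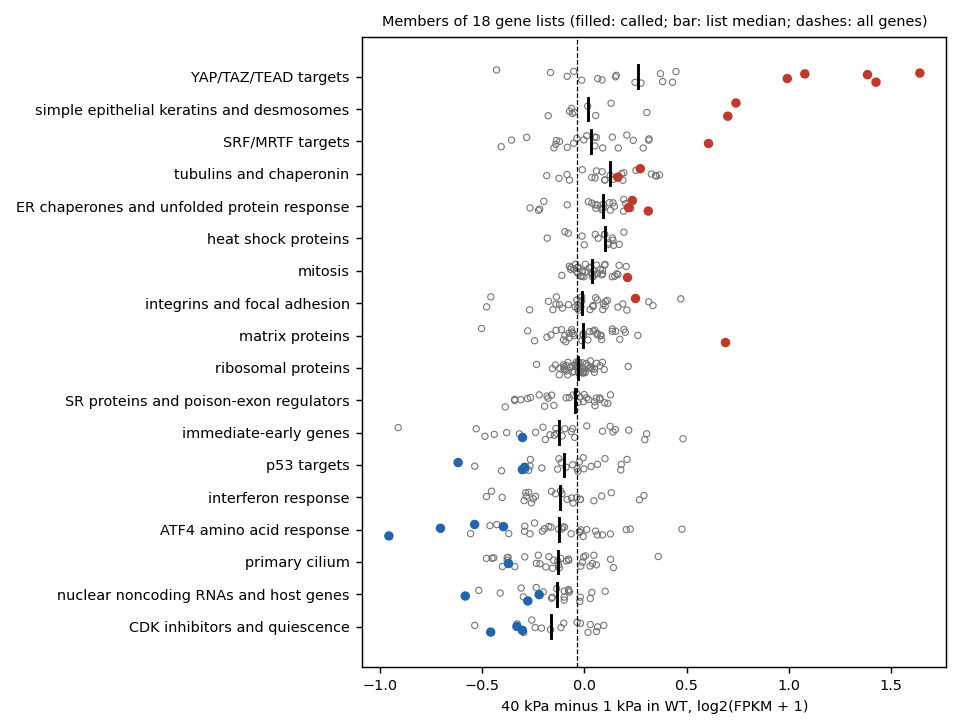
Change between 40 and 1 kPa in WT, in log2(FPKM + 1), for each tested member of 18 gene lists. Filled points are called genes (red higher, blue lower), open points are not called, bars mark the median of a list and the dashed line that of all genes tested, at -0.034.

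Among the genes that fell were members of the amino acid response. ATF4 is the transcription factor made when amino acids run short, and it switches on genes that make and import them and genes that brake growth. Of 33 genes of its response tested, 4 fell and 0 rose. In 19 every stiff library lay below every soft one, as in 16.8% of all genes, and in 4 above. The median change was -0.126. Without the GC-deviating libraries 14 fell and 3 rose, where 650 of all 14284 genes fell and 376 rose.

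DDIT4 (hg19 chromosome 10, 74033678 to 74035794), which restrains mTORC1 signalling, was at 11.6, 9.48 and 9.81 FPKM on the soft and 5.14, 4.57 and 4.71 on the stiff gel. The groups were far apart and the ratio was 0.47 (log2 change -0.95, SE 0.112, adjusted p = 0.000139). ASNS, which makes asparagine, was at 101.9, 97.1 and 112.2 against 68.5, 73.7 and 71.3, a ratio of 0.69 (-0.54, SE 0.0893, adjusted p = 0.0049). DDIT3 (CHOP), a stress transcription factor, was at 28.0, 22.9 and 23.3 against 18.2, 19.8 and 17.6 (-0.39, adjusted p = 0.0139), soft replicate 1 being the highest. NUPR1, a small stress-induced nuclear protein, was at 1.68, 1.59 and 1.24 against 0.558, 0.573 and 0.473 (-0.70, adjusted p = 0.0255). The calls of DDIT4 and ASNS held without any 1 WT library. That of DDIT3 was lost in 3 of the 6 fits (adjusted p up to 0.0798) and that of NUPR1 in all 6 (up to 0.11).

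The window before ASNS (GRCh38.p14 chr7:97872409-97872658, minus strand) is shown because it holds the composite word TGATGNAA that C/EBP and ATF factors bind, 68 bases before the start. That word is in 3.19% of windows, and those of DDIT4 and DDIT3 hold 0 matches.

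ASNS: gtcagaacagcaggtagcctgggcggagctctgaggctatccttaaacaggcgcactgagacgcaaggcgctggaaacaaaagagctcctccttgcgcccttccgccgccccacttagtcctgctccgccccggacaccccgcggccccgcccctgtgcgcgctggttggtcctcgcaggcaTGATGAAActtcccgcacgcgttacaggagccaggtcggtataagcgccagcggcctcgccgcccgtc

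Other members were not called. ATF4 itself changed by -0.02 with overlapping groups. CHAC1, which degrades glutathione, was at 1.77, 1.89 and 1.99 FPKM against 1.11, 0.813 and 0.973 but was not called (-0.56, adjusted p = 0.101), nor was the glycine transporter SLC6A9 (-0.46, adjusted p = 0.101). SLC7A5, the importer of large neutral amino acids, stood higher. It was at 691.3, 698.0 and 654.9 FPKM on the soft and 952.2, 984.5 and 911.5 on the stiff gel, groups that do not overlap, yet it was not called (0.48, SE 0.154, adjusted p = 0.154). Without the GC-deviating libraries SLC7A5, its partner chain SLC3A2 and ATF5 were called higher.

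A few targets of p53 and genes that hold back the cell cycle fell. HEK293 cells carry adenovirus E1 genes, whose products bind p53. Of 26 p53 targets tested 3 fell and 0 rose, with a median of -0.101, and 12 had every stiff library below every soft one, as in 16.8% of all genes. DDB2, which recognises damaged DNA, was at 48.8, 44.8 and 52.9 FPKM on the soft and 34.9, 30.3 and 29.4 on the stiff gel (log2 change -0.62, SE 0.0945, adjusted p = 0.00189). BTG2, an antiproliferative gene, was at 6.87, 6.91 and 7.38 against 5.73, 5.36 and 5.50 (-0.30, adjusted p = 0.0161), and the receptor EDA2R at 3.62, 3.37 and 3.51 against 2.68, 2.54 and 2.82 (-0.29, adjusted p = 0.0399). CDKN1A (p21) stood at 15.0, 15.8 and 15.3 FPKM against 10.6, 9.62 and 10.8, with no overlap, but was not called (-0.54, SE 0.141, adjusted p = 0.081). Without 1 WT library 1 or 2 of the list were called, BTG2 losing its call in 4 of the 6 fits and EDA2R in all 6. DDB2 kept its call in all 6 but lost it in a fit of the WT libraries alone. Without the GC-deviating libraries 7 of the list fell, CDKN1A among them, where 650 of all 14284 genes fell.

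Of 19 CDK inhibitors and quiescence genes 3 fell and 0 rose, with a median of -0.164. They were BTG2, GAS1 and KLF9. GAS1, a surface protein that blocks entry into S phase, was at 6.90, 7.4 and 7.35 FPKM against 5.11, 4.45 and 5.43 (-0.46, adjusted p = 0.00146). KLF9, a transcription factor of resting cells, was at 4.30, 3.99 and 4.26 against 3.05, 3.15 and 3.17 (-0.33, adjusted p = 0.00168). Both kept the call whichever WT library was left out, but lost it in a fit of the WT libraries alone. Of 18 genes reported as RFX7 targets, among which are DDIT4 and PDCD4, DDIT4 alone fell, with a median of -0.174. Of 28 immediate-early genes BTG2 alone fell (median -0.121). FOS was at 3.68, 3.68 and 3.25 against 2.56, 1.11 and 0.867 FPKM, without a call (-0.91, SE 0.26, adjusted p = 0.106).

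Some noncoding RNAs fell on the stiff gel. Of 23 noncoding RNAs and host genes of small RNAs tested 3 fell and 0 rose, with a median of -0.135. In 10 every stiff library lay below every soft one, as in 16.8% of all genes. NEAT1, the scaffold of paraspeckles, was at 173.1, 172.9 and 186.2 FPKM on the soft and 124.5, 117.4 and 112.8 on the stiff gel (log2 change -0.58, SE 0.0864, adjusted p = 0.00146). MALAT1, its neighbour on chromosome 11, was at 80.7, 84.4 and 82.3 against 54.3, 59.7 and 58.3 and was not called (-0.52, SE 0.128, adjusted p = 0.0589). MIR17HG, the host of the miR-17 cluster, fell from 18.8, 16.9 and 18.9 to 14.7, 14.4 and 15.4 (-0.28, adjusted p = 0.0378), and LINC00657 (NORAD) by 0.22 (adjusted p = 0.0483). MIR17HG lost its call in 5 of the 6 fits with a WT library left out (adjusted p up to 0.173) and LINC00657 in all 6 (up to 0.201). Of 30 SR proteins and other genes whose transcripts can be held in the nucleus 0 were called, 10 having an unadjusted p below 0.05 (median -0.046). Without the GC-deviating libraries 8 of the noncoding RNAs fell, MALAT1 among them, and 10 of the 30, led in size by PAN2 and CLK2. In that fit 650 of all 14284 genes fell.

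Further genes fell outside these lists or alone in theirs. H1F0, the linker histone of resting and differentiated cells, had the smallest p of all falls. It was at 31.9, 31.6 and 31.6 FPKM on the soft and 21.2, 21.0 and 20.6 on the stiff gel (log2 change -0.58, SE 0.0486, adjusted p = 2.44e-06). TPPP3, a tubulin-binding protein, fell from 2.71, 3.0 and 3.10 to 0.977, 1.24 and 0.943 FPKM, a ratio of 0.36 (-0.94, adjusted p = 0.000248). In both the groups were far apart and the calls held without any 1 WT library. BHLHE40, a repressor of the clock, fell from 6.09, 6.34 and 7.34 to 4.84, 4.17 and 3.92 (-0.52, adjusted p = 0.00625). BMF, which promotes apoptosis when cells lose anchorage, fell from 6.79, 6.38 and 7.81 to 4.49, 4.75 and 4.51 (-0.51, adjusted p = 0.00604). BCL2L1, whose main product opposes apoptosis, rose from 16.4, 16.9 and 17.7 to 22.2, 21.7 and 21.1 (0.33, adjusted p = 0.0344). The calls of BHLHE40 and BMF were lost without WT_1kPa replicate 3 (adjusted p = 0.0537 and 0.0515), and that of BCL2L1 in each of the 6 fits with a WT library left out (up to 0.128).

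EMP3, a membrane protein of the PMP22 family, fell from 82.1, 79.9 and 77.3 to 48.9, 54.2 and 63.8 FPKM (-0.52, adjusted p = 0.0144), with stiff replicate 3 nearest to the soft libraries. Its call was lost in 5 of those 6 fits and after GC correction (adjusted p up to 0.0921 with a library left out). LGR5, the Wnt-associated stem cell receptor, fell from 6.50, 6.80 and 7.18 to 4.90, 4.68 and 5.10 (-0.41, adjusted p = 0.0139), alone among 18 Wnt genes tested, and lost the call in 4 of those 6 fits (adjusted p up to 0.0889). IGFBP5, which binds insulin-like growth factors, fell from 2.76, 3.68 and 3.41 to 1.92, 1.61 and 2.08 (-0.58, adjusted p = 0.00466). Its call held in all 6 of those fits but was lost in a fit of the WT libraries alone. HNRNPU-AS1, AZIN1-AS1 and other antisense genes may share fragments with the genes they overlap, since the sources used here do not give the strand setting.

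Cilium genes held 1 call. Of 35 genes of the primary cilium, an antenna that forms mainly in resting cells, BBS2 fell (48.0, 48.6 and 51.6 to 38.3, 38.1 and 37.5 FPKM, log2 change -0.37, adjusted p = 0.0493) and 0 rose. The median was -0.129, and 15 of the 35 had every stiff library below every soft one, as in 16.8% of all genes. BBS2 lost the call whenever a WT library was left out (adjusted p up to 0.191). IFT81, of the intraflagellar transport machinery, was at 18.4, 17.2 and 22.3 against 12.5, 14 and 14.1 and was not called (-0.48, adjusted p = 0.188). Of 25 interferon response genes 0 were called, 7 having an unadjusted p below 0.05, with a median of -0.116. Of 43 genes of lysosome and autophagy, 34 of hypoxia and glycolysis, 25 of cholesterol synthesis and 32 of oxidative phosphorylation 0 were called, with 2, 5, 5 and 1 at an unadjusted p below 0.05.

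The stiffness response of the genes called in WT was then set beside that of the 3 knockout lines, each line's 40 kPa libraries being compared with its own 1 kPa libraries. The WT-called genes were chosen on WT values that also enter each difference, so their changes lean towards a larger size in WT. In RAP2A/B/C-tKO, where 1.09% of all genes rose and 3.24% fell, 49 of the 50 genes that rose in WT had a positive change (42.4% of all genes did) and 26 were called higher. Of the 108 that fell in WT, 105 were negative (57.5% of all genes) and 62 were called lower. In LATS1/2-dKO, where 0.091% rose and 0.714% fell, 32 of the 50 were positive (40.9% of all genes) with 2 called, ANKRD1 and EMILIN2. Of the 108, 90 were negative (59.0%) with 16 called. In YAP/TAZ-dKO, where 0.126% rose and 0.252% fell, 25 of the 50 were positive (46.9%) with 0 called higher and 1 lower, and 63 of the 108 were negative (52.9%) with 6 called lower and 5 higher.

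**Figure D4:**
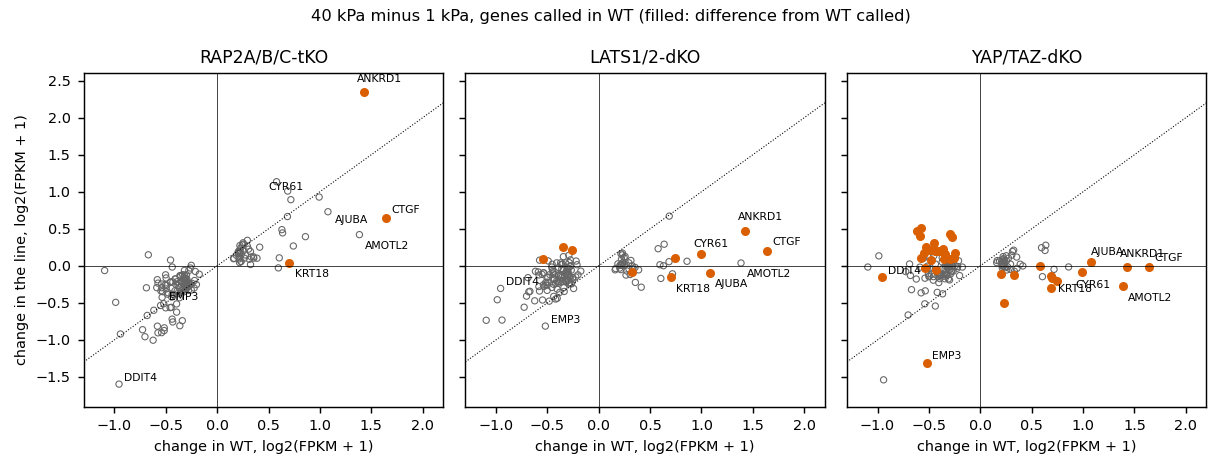
Change between 40 and 1 kPa in each knockout line against the change in WT, in log2(FPKM + 1), for the genes called in WT. Filled points are genes whose difference from WT was called, and the dotted line marks equal changes. One clone-named transcript lies outside the range. Of the 50 genes that rose in WT, 49 lie above 0 in RAP2A/B/C-tKO, 32 in LATS1/2-dKO and 25 in YAP/TAZ-dKO.

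The difference of the response was tested for each gene by the same fit. It was called for 8 genes in RAP2A/B/C-tKO (0.056% of those tested), 10 in LATS1/2-dKO (0.07%) and 63 in YAP/TAZ-dKO (0.441%). Among the genes that rose in WT the difference was called for 3, 7 and 13. CTGF was called in all 3 lines. The change of CTGF was 1.64 in WT, 0.65 in RAP2A/B/C-tKO (difference -0.99, adjusted p = 1.93e-06), 0.20 in LATS1/2-dKO (-1.44, adjusted p = 3.72e-09) and -0.01 in YAP/TAZ-dKO (-1.65, adjusted p = 3.2e-10). The level of CTGF on the soft gel was 37.8 ± 0.716 FPKM (SD, n = 3) in RAP2A/B/C-tKO and 70.7 ± 3.09 in LATS1/2-dKO, both above the stiff WT libraries, and 0.230 ± 0.0278 in YAP/TAZ-dKO.

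ANKRD1 and KRT18 were the other two called in all 3. ANKRD1 changed by 2.34 in RAP2A/B/C-tKO, more than in WT (difference 0.92, adjusted p = 0.00695), by 0.47 in LATS1/2-dKO (-0.96, adjusted p = 0.00498) and by -0.02 in YAP/TAZ-dKO (-1.45, adjusted p = 1.03e-05). On the soft and stiff gel its means were 0.877 and 4.02 FPKM in WT, and 5.57 and 32.4 in RAP2A/B/C-tKO. In YAP/TAZ-dKO they were 0.0704 and 0.0539, near 0, so its difference there is close to the WT change with its sign reversed. The call of its larger change in RAP2A/B/C-tKO was lost with a pseudocount of 0.1. It was also lost with only that line and WT in the fit. In both settings 0 differences of that line were called higher. KRT18 changed by 0.04, -0.15 and -0.16 in the 3 lines, with differences of -0.66, -0.86 and -0.86 (adjusted p = 0.00241, 8.17e-05 and 2.44e-05). CYR61 and AJUBA differed in LATS1/2-dKO and YAP/TAZ-dKO, and AMOTL2 in YAP/TAZ-dKO (difference -1.66, adjusted p = 0.00625). For AMOTL2 the difference was -1.35 in LATS1/2-dKO (adjusted p = 0.0651) and -0.96 in RAP2A/B/C-tKO (adjusted p = 0.429), neither called.

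Among the genes that fell in WT the difference was called for 0, 3 and 28. Of the 108, 5 were called higher in YAP/TAZ-dKO: DDB2, EDA2R, IGFBP5, MIR17HG and MIR34AHG. DDB2 went from 19.9 ± 1.84 to 27.8 ± 2.45 FPKM (SD, n = 3) in that line (log2 change 0.46, difference from WT 1.08, adjusted p = 0.000248). IGFBP5 went from 6.98 ± 0.361 to 10.4 ± 0.841 (0.51, difference 1.09, adjusted p = 0.000248), and MIR17HG and EDA2R also rose there (differences 0.67 and 0.73). NEAT1 changed by 0.10 (difference 0.68, adjusted p = 0.0115). EMP3 fell by 1.31 there, more than in WT (difference -0.79, adjusted p = 0.0134). Without the 2 GC-deviating libraries the differences called were 17, 252 and 429, and leaving out LATS1/2-dKO_40kPa replicate 3 raised the 10 of that line to 66.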

How the data were processed

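Poly(A) RNA from HEK293A cells on hydrogels was sequenced in 24 libraries, 6 of them WT. Per the submitters' processing notes, the authors used STAR 2.4.2a, Cufflinks 2.2.1 and build hg19. They deposited 1 table per library with an FPKM and its 95% confidence limits for each of 60350 entries, which is a normalized value and not a count. The sources used here do not give the annotation release or how strand and reads with several matches were treated. Fragment totals of 19.74 to 42.74 M were estimated from the deposited FPKM limits over genes of 20 to 200 fragments.

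FPKM values were summed over entries that share a symbol (338 symbols), and 92 symbols with a status other than OK were left out. All 37 mitochondrial entries are listed at 0. Genes that reached an FPKM of 1 in at least 3 of the 6 WT libraries were fitted as log2(FPKM + 1) in limma 3.58.1 (R 4.3.3), with 8 group means over 24 libraries, a mean-variance trend and Benjamini-Hochberg adjusted p-values (two-sided). GC content was available for 98.67% of the genes. Tested on simulated data for the WT comparison (14284 genes), the fit called 63 of 100 genes changed by 0.5 in log2, 89 of 100 changed by 1, and 7 unchanged genes. The changed genes were drawn only from genes above a minimum level. The simulated noise was independent between genes, without GC-linked deviations of whole libraries. The rates for low genes or for libraries that deviate in that way were not tested. Figures and tables were made with Python 3.11.15. Groups follow the sample labels.

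Genes were named by a rule: the largest changes without overlap in each direction, the most abundant called genes, the edited genes, all YAP/TAZ/TEAD targets, and from every other list up to 6 called members and up to 2 not called. Genes named outside it were chosen after their values were seen. The members and lists were chosen with earlier results of these data known. Alternatives concerned the pseudocount, filter, scaling, GC content, library weights, moderation, libraries that set the spread, replicate number as a block, and leaving out each library.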

Additional observations from a re-analysis of the deposited data

Results flagged for a closer look

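The change between 40 and 1 kPa differed from that in WT, by limma's test of the difference with Benjamini-Hochberg adjustment, for the named genes below. They make 34 gene and line pairs, 3 in RAP2A/B/C-tKO, 7 in LATS1/2-dKO and 24 in YAP/TAZ-dKO. Values are the change in the line minus the change in WT, in log2(FPKM + 1). Nearly all the genes were chosen on their WT change, which enters each difference, and causes were not tested.

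In RAP2A/B/C-tKO the difference was 0.92 for ANKRD1, -0.99 for CTGF and -0.66 for KRT18. That of ANKRD1 was not called with a pseudocount of 0.1, nor with only that line and WT in the fit. In LATS1/2-dKO all 7 differences were negative, for genes that rose in WT. They were -1.17 for AJUBA, -0.96 for ANKRD1, -0.40 for ANKRD33B, -1.44 for CTGF, -0.83 for CYR61, -0.86 for KRT18 and -0.64 for KRT8.

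In YAP/TAZ-dKO the genes that rose in WT had negative differences. These were -1.03 for AJUBA, -1.66 for AMOTL2, -1.45 for ANKRD1, -0.44 for ANKRD33B, -1.65 for CTGF and -1.08 for CYR61. They were -0.83 for EMILIN2, -0.98 for GPRC5A, -0.86 for KRT18, -0.95 for KRT8, -0.74 for S100A10 and -0.58 for UBE2QL1. On the soft gel ANKRD1, CTGF and UBE2QL1 had means of 0.0704, 0.230 and 0.0899 FPKM in that line, levels at which a fall could hardly show. Of the genes that fell in WT, EMP3 had a difference of -0.79. The others were positive, at 0.72 for ACCS, 1.08 for DDB2, 0.80 for DDIT4, 0.73 for EDA2R, 0.68 for HNRNPU-AS1 and 1.09 for IGFBP5. They were 0.60 for LGR5, 0.67 for MIR17HG, 0.68 for NEAT1 and 0.98 for SEC31B. H3F3A, which was not called in WT and has near-identical copies, had a difference of 0.77.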

How the results depend on the processing

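Of the 66 called genes named by the rule, CTGF, CYR61, AMOTL2 and KRT8 were called in every setting tried, and 0 of the 66 changed direction in any. The 158 calls in WT became 504 with GC correction, 66 in the WT libraries alone (31 of them shared), 1026 without RAP2A/B/C-tKO_40kPa replicate 3 and LATS1/2-dKO_40kPa replicate 1, and 1177 with library weights. They numbered 46 to 100 with 1 WT library left out. The other settings gave 127 to 193, apart from the fits with a replicate block. The 8 differences of RAP2A/B/C-tKO from WT became 3 with a pseudocount of 0.1, 3 in the line and WT alone, 17 without those 2 libraries and 29 with weights, and 5 to 13 with 1 library left out. The 10 of LATS1/2-dKO became 18 without a filter, 20 with scaling, 54 with GC correction, 5 in the line and WT alone, 252 and 154 in the same order, and 7 to 66. The 63 of YAP/TAZ-dKO became 175 with GC correction, 276 in the line and WT alone, 429 and 512, and 39 to 52. Causes were not tested, beyond that fewer libraries enter some fits.

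Replicate numbers did not pair the WT libraries, whose same-numbered deviations correlated at -0.027, -0.048 and 0.025 over genes. With the replicate block 120 genes were called in WT, and 6, 7 and 54 differences in the 3 lines. In the WT libraries alone the block gave 15 calls, 12 higher and 3 lower, of which 4 were among the 158. With GC correction over all libraries the block gave 412 calls, and 10, 31 and 134 differences.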

Other observations

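A group of retinoid genes, chosen after their values were seen, contained 3 that fell on the stiff gel, of 12 tested. DHRS3, which turns retinaldehyde back into retinol, was at 12.5, 13.8 and 12.5 FPKM in the soft and 8.45, 8.43 and 7.31 in the stiff WT libraries (log2 change -0.62, limma adjusted p = 0.0049). CRABP2, which carries retinoic acid to its receptors, was at 112.0, 108.3 and 114.6 against 87.9, 83.3 and 85.6 (-0.38, adjusted p = 0.00885). The receptor RARB was at 3.85, 3.76 and 4.41 against 2.82, 2.52 and 2.41 (-0.48, adjusted p = 0.00695). The stiff libraries lay below the soft ones in all 3. The other receptors RARA, RARG and RXRA were not called, with changes of 0.06, -0.14 and 0.05, nor was the retinoic acid synthase ALDH1A2 (-0.06). RXRB was at 32.4, 33.0 and 31.2 against 26.8, 27.9 and 27.4, groups that do not overlap, and was not called either (-0.23, adjusted p = 0.0801).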
